A study of Mus musculus with 24 samples.

Results

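Levels of 10 genes of steroid hormone synthesis and of the adrenal cortex were followed in supporting cells sorted from fetal mouse gonads. The genes were Star, Cyp11a1, Cyp11b1, Cyp17a1, Cyp19a1, Hsd3b1, Hsd17b1, Hsd17b3, Mc2r and Fdx1. They were taken by symbol, and all 10 were found among the 32040 gene symbols of the deposited tables. The 24 bulk RNA libraries formed 8 groups of 3, which were the XX pre-granulosa cells and the XY Sertoli cells on embryonic days E11.5, E12.5 and E13.5 and, last, on E15.5. XX cells were sorted from gonads of the Tg(Enh8-mCherry) line, a transgenic reporter, and XY cells from gonads of the SOX9-IRES-GFP line, in which GFP follows SOX9. No treatment was named in the labels for any group. Because sex, mouse line and fluorophore changed together, their parts in a difference between XX and XY cannot be told apart. About 40000 cells went into each library, and the number of embryos pooled is not given in the sources used here.

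Steroid synthesis starts when STAR moves cholesterol to the inner mitochondrial membrane, where CYP11A1 cleaves its side chain to make pregnenolone. CYP11A1 and CYP11B1 receive electrons from ferredoxin, the product of Fdx1. HSD3B enzymes then convert pregnenolone to progesterone, CYP17A1 leads to androgen precursors, HSD17B enzymes reduce 17-keto steroids such as androstenedione, and CYP19A1, or aromatase, makes estrogens from androgens. CYP11B1 makes corticosterone in the mouse adrenal cortex, and MC2R is the receptor through which ACTH drives that tissue. In the fetal testis, Leydig cells make androstenedione, and Sertoli cells hold the HSD17B activity that turns it into testosterone. The adrenal cortex and the gonad arise from a shared primordium marked by Nr5a1.

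The genes lie apart in the genome. In RefSeq coordinates of GRCm38.p6, Star spans chr8:25808474-25815982, Cyp11a1 chr9:57998024-58027031, Cyp19a1 chr9:54165937-54268164, Fdx1 chr9:51943023-51963602, Cyp11b1 chr15:74834892-74841643, Cyp17a1 chr19:46667165-46673000, Hsd17b1 chr11:101077968-101081188 and Hsd17b3 chr13:64058274-64089262. Hsd3b1 at chr3:98842356-98859794 has a related copy beside it, Hsd3b6, at chr3:98805504-98814443.

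Promoter windows of 5 of the 10 genes were matched in the RefSeq table. The 250 bases before the start site are shown for Hsd3b1 and Hsd3b6, because these copies changed in different directions in XX cells, and for Cyp11a1, the first enzyme of the pathway. They were read from chr3:98859795-98860044 (minus strand), chr3:98814444-98814693 (minus strand) and chr9:57997774-57998023 (plus strand) of GRCm38.p6, and are written 5′ to 3′ on the gene's strand. The windows also held another Cyp11a1 start site (chr9:58014702-58015001, plus strand), whose sequence is not shown. Capitals mark the letters AGATAA on either strand, a motif of the type that GATA factors bind.
Hsd3b1: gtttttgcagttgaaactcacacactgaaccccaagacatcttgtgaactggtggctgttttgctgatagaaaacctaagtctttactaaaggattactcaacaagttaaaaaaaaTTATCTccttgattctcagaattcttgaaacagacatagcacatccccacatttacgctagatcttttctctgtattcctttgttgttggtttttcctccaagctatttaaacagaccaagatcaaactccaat
Hsd3b6: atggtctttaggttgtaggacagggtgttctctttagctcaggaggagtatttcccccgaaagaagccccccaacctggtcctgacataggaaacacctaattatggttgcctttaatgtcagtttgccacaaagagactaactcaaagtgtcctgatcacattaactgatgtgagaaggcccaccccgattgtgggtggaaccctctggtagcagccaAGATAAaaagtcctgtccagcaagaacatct
Cyp11a1: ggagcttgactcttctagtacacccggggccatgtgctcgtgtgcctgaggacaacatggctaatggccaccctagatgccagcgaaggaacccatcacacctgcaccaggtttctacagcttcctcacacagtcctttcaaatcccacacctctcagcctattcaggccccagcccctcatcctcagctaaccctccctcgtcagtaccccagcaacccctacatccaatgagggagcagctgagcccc
The motif stood 134 bases before the start of Hsd3b1, on the opposite strand, and 31 bases before the start of Hsd3b6, on the gene's strand. AGATAA was found on either strand in 11.2% of all 32851 windows, which run from 250 bases before to 50 bases after a start site. AAGGTCA, a site type of NR5A1, was in 4.72% of windows, AACAAT, a SOX type, in 10.7%, and TATAAA in 13.6%. None of the 3 was in the windows of Hsd3b1, Hsd3b6 or the Cyp11a1 start shown. Aligned end to end, the windows of the Hsd3b copies were 45.7% identical and shared no run longer than 7 bases. Their coding sequences were 90.0% identical, with a longest shared run of 72 bases.

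Library totals ran from 11275251 to 37256881 counts, with the XY E11.5 libraries deepest. Summed CPM (counts scaled by library size) of 7 Sertoli markers, Sox9 and Amh among them, was 1510 to 10100 in XY libraries and 65.1 to 269 in XX libraries. The sum of 7 pre-granulosa markers, Foxl2 and Fst among them, was 309 to 1300 in XX and 3.04 to 72.5 in XY. Replicates 1, 2 and 3 of XX E11.5 stood apart from each other: their pre-granulosa sums were 385, 932 and 309 CPM, and their erythroid sums 10300, 3190 and 25600 CPM, against 10.3 to 22.5 CPM in XY E11.5. Immune markers summed to 18.1 to 195 CPM in XX libraries and to at most 1.42 CPM in XY libraries. One XX E13.5 library, replicate 1, carries a different stage in 1 of its label fields and was kept at E13.5 as its title says. The labels do not say that replicates came from separate litters, so the p-values measure the spread between these samples, which may be technical. In bulk RNA, fewer cells of a type and less RNA per cell cannot be told apart.

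Star and Cyp11a1, the entry point and the first enzyme, were highest at E11.5 in both sexes and several-fold lower a day later. Levels of single genes are given as TPM, a unit that corrects for gene length and library size. Star stood at 39.9, 48.7 and 27.3 TPM in the XX E11.5 libraries and at 53.5, 69.2 and 62.2 TPM in XY E11.5. By E12.5 it was at 15.7, 13.6 and 7.51 TPM in XX and 11.6, 8.17 and 8.11 TPM in XY. The XY libraries lay above the XX libraries at E11.5 without overlap, and the sexes overlapped at E12.5. In the edgeR fit, Star was higher in XY at E11.5 (XX minus XY, log2 difference -0.63, SE 0.18, adjusted p = 0.0073, 3 libraries a group). With only the 6 libraries compared in the fit, the value was -0.65 and not called (edgeR adjusted p = 0.0933). It fell from E11.5 to E12.5 by 1.68 on the log2 scale in XX (SE 0.19, edgeR adjusted p = 3.9e-06) and by 2.38 in XY (SE 0.19, edgeR adjusted p = 1.5e-09). Markers of interstitial progenitors were lower at E12.5 too: the sum of 6 went from 395 to 505 CPM in XY E11.5 to 110 to 129 CPM in XY E12.5, with Pdgfra from 209 to 246 CPM down to 12.3 to 15.3 CPM and Nr2f2 from 79.3 to 133 CPM down to 7.12 to 8.22 CPM. In XX the sum went from 190 to 367 CPM to 152 to 221 CPM. Their part in the falls of Star, Cyp11a1, Cyp11b1 and Mc2r at this step was not tested.

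After E12.5 the course of Star differed between the sexes. It rose again in XX E13.5 to 30.8, 27.4 and 34.8 TPM, above every XX E12.5 library, and was back at 7.60, 9.94 and 7.72 TPM at E15.5. The XY libraries held 14.0, 12.1 and 10.4 TPM at E13.5 and 7.44, 11.2 and 7.49 TPM at E15.5. From E12.5 to E13.5 the XX rise was 1.44 (log2, SE 0.19, edgeR adjusted p = 1.5e-05), and the step in XX exceeded that in XY by 1.13 (SE 0.26, adjusted p = 0.0034). At E13.5 Star was 2.29-fold higher in XX than in XY by mean CPM (log2 difference 1.20, SE 0.19, edgeR adjusted p = 9e-06). From E13.5 to E15.5 it fell by 1.69 in XX (SE 0.19, edgeR adjusted p = 3.16e-06), and this step was again unlike that in XY (difference of the steps -1.24, SE 0.27, adjusted p = 0.00187). In order of mean TPM, XY E11.5 stood first and XX E11.5 second, XX E13.5 overlapped XX E11.5, and the other 5 groups each overlapped their neighbour.

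Cyp11a1 was at 181, 71.9 and 177 TPM in XX E11.5 and at 115, 124 and 95.8 TPM in XY E11.5, with overlap between the sexes. XX replicate 2, the low one, also had the highest pre-granulosa and the lowest erythroid sum of its group. At E12.5 the XX libraries held 19.7, 18.9 and 19.5 TPM and the XY libraries 7.66, 7.17 and 5.59 TPM. The fall was 7.70-fold in XX (log2 -2.94, SE 0.33, edgeR adjusted p = 5.5e-06) and 14.2-fold in XY (log2 -3.83, SE 0.35, edgeR adjusted p = 1.7e-08). From E12.5 on, the XX libraries stayed above the XY libraries for 1 more stage. At E13.5 they held 19.7, 15.0 and 15.1 TPM against 2.97, 5.25 and 4.34 TPM, a log2 difference of 2.16 (SE 0.35, edgeR adjusted p = 1.6e-05).

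At E15.5 the order of the sexes for Cyp11a1 was turned round. The XX libraries held 0.86, 1.10 and 0.12 TPM, or 28 counts in all, and the XY libraries 8.56, 23.4 and 10.3 TPM. In mean CPM it was 28.8-fold higher in XY (XX minus XY, log2 -5.03, SE 0.49, edgeR adjusted p = 1.6e-08). The counting interval of the ratio of summed counts was 22.7 to 49.9 (95%, exact binomial, counting error only). Between E13.5 and E15.5 Cyp11a1 fell in XX (log2 -5.36, SE 0.49, edgeR adjusted p = 2.95e-07) and rose in XY (log2 1.82, SE 0.34, edgeR adjusted p = 0.00065), and the steps differed by -7.19 (SE 0.60, adjusted p = 1.1e-07). Replicate 2 of XY E15.5 was the highest for Cyp11a1, and without it the XY rise was 1.30 (log2, edgeR adjusted p = 0.00719).

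Of 5 Leydig cell markers, Insl3 and Lhcgr rose in XY from E13.5 to E15.5 (log2 3.56 and 2.03, edgeR adjusted p = 0.00698 and 0.0172). Ren1 fell (log2 -1.39, edgeR adjusted p = 0.00666), and Hsd3b6 and Sult1e1 were at or under 3 counts in every XY E15.5 library. Insl3, a Leydig cell hormone, was at 1.95, 5.22 and 2.21 CPM in XY E15.5 replicates 1, 2 and 3 and at no more than 0.561 CPM in the other XY libraries. Ren1 was at 2.13, 5.56 and 2.15 CPM in the same 3 libraries, against 7.33 to 10.5 CPM in XY E13.5 and up to 33.7 CPM in XY E12.5. Replicate 2 was thus also the highest of the 3 for Insl3 and Ren1. The sum over 5 Leydig markers was 4.38 to 12.3 CPM in XY E15.5, 8.25 to 10.6 in XY E13.5 and 22.6 to 34.6 in XY E12.5. At E12.5 and E13.5 most of this sum was Ren1. The part of Leydig cell RNA in the rise of Cyp11a1 was not tested.

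Cyp11b1 and Mc2r, the adrenal-like pair, were found at E11.5 in both sexes and came back in XX cells at E13.5. Cyp11b1 was at 2.07, 17.9 and 0.65 TPM in XX E11.5, a spread set by replicate 2, and at 0.51, 1.16 and 0.81 TPM in XY E11.5. The XX minus XY difference at E11.5 was 3.23 (log2, SE 0.91, edgeR adjusted p = 0.009) with that library and 0.75 (adjusted p = 0.371) without it. At E12.5 the XX libraries held 0.41, 0.26 and 0 TPM, and all 3 XY libraries were at 0 counts. At E13.5 the XX libraries rose to 6.43, 6.24 and 4.83 TPM, 143 to 339 counts each, while the XY libraries had 0, 1 and 4 counts. All 3 XX E15.5 libraries were at 0 again.

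For Cyp11b1 the E12.5 to E13.5 rise in XX was 30.5-fold in mean CPM (log2 4.89, SE 1.06, edgeR adjusted p = 0.0022). At E13.5 the ratio of XX to XY summed counts was 188, with a counting interval of 80.2 to 581 (edgeR adjusted p = 0.00012). From E13.5 to E15.5 the XX level was at least 49.9-fold lower, taking 3 counts per library as the limit that a count of 0 allows (edgeR adjusted p = 0.000816). In XY it fell from E11.5 to at least 11.2-fold lower at E12.5 (edgeR adjusted p = 0.0063; not called in limma on log2(TPM + 1), adjusted p = 0.177). Its copy Cyp11b2, which makes aldosterone, never exceeded 1 count in a library and was not tested. The coding sequences of Cyp11b1 and Cyp11b2 are 86.9% identical, so reads of the shared stretches could be split between them.

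Mc2r lies at chr18:68406899-68429320. Its mean was 9.58 TPM in XX E11.5 (SD 1.67, n = 3, lowest library 8.56), and the XY E11.5 libraries were at 16.2, 29.1 and 27.2 TPM, with no overlap and a log2 difference of -1.25 (SE 0.31, edgeR adjusted p = 0.004). In XY it was at 0 counts in all 6 libraries of E12.5 and E13.5, at least 164-fold lower at E12.5 than at E11.5 (edgeR adjusted p = 3.3e-10). In XX it fell 11.3-fold to 0.70, 0.52 and 1.46 TPM at E12.5 (log2 -3.49, SE 0.37, edgeR adjusted p = 7.8e-06). It then rose 4.27-fold to 2.42, 2.93 and 4.43 TPM at E13.5 (log2 2.09, SE 0.38, edgeR adjusted p = 0.0005). At E15.5 XX libraries had 2, 2 and 1 counts and XY libraries 2, 2 and 0, so no fold is given between the sexes. XX cells thus held Mc2r RNA above XY cells at E12.5 (at least 6.11-fold, edgeR adjusted p = 7e-06) and at E13.5 (at least 22.0-fold, edgeR adjusted p = 1.7e-08).

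Cyp21a1, a 21-hydroxylase of corticoid synthesis, was looked at after its values were seen, as it lies under the level set for naming. It was at 2.80, 9.21 and 1.81 TPM in XX E11.5, then 0.57, 0 and 0 TPM on E12.5, 2.32, 2.80 and 2.89 TPM on E13.5, and 0 in all 3 E15.5 libraries. Since it was picked for this course, no test is given. Of the 6 adrenal cortex markers, 5 were above 3 counts in some XX E13.5 library and Cyp11b2 was not. Their sum was 18.5 to 22.8 CPM in XX E12.5, 30.3 to 33.1 in XX E13.5 and 31.7 to 33.1 in XX E15.5, with Mrap among them at 17.1 to 19.7 CPM in XX E15.5. In XY the sum went from at most 30.8 CPM at E11.5 to between 77.2 and 78.9 CPM at E15.5. There Akr1b7 made up 57.4 to 60.1 CPM and Gramd1b 15.8 to 18.2 CPM, Mrap was at no more than 1.96 CPM, and Cyp21a1, Cyp11b2 and Akr1c18 were at or under 3 counts. The part of adrenal cells in these values was not tested.

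**Figure D1:**
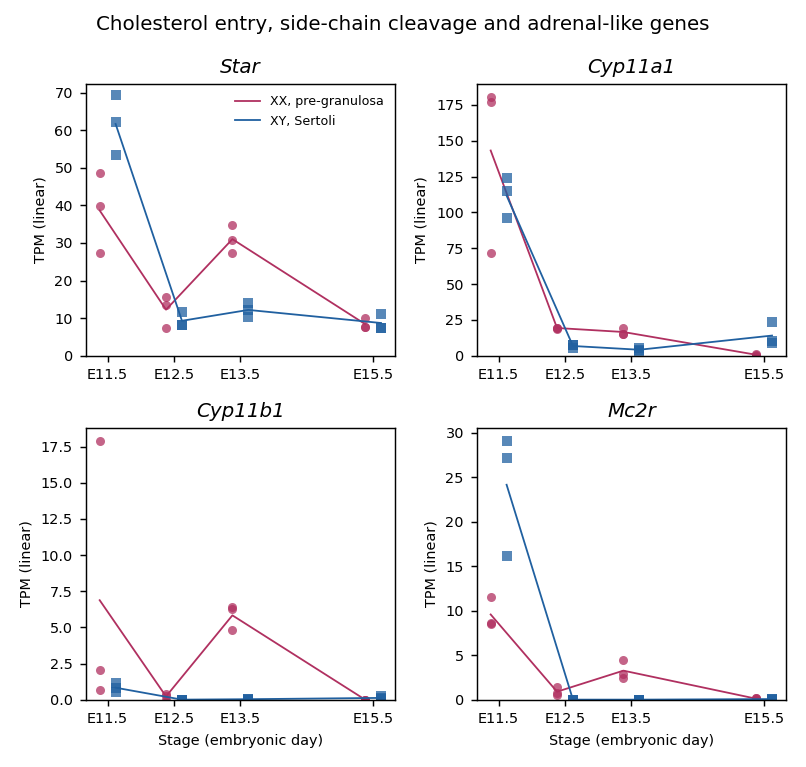
TPM (linear axis) against embryonic stage for Star, Cyp11a1, Cyp11b1 and Mc2r. Each point is 1 library, circles XX and squares XY, set slightly left and right of the stage, and lines join group means. Star, Cyp11b1 and Mc2r were higher in XX at E13.5 than at E12.5 and E15.5, and Cyp11a1 was higher in XY at E15.5.

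Hsd3b1 was the most abundant of the 10 genes in late XX cells by TPM. Its XX values were 10.9, 44.4 and 8.18 TPM at E11.5, then 49.95, 44.3 and 34.1 on E12.5, 106, 105 and 97.2 on E13.5, and lastly 243, 241 and 226 on E15.5. In XY it was at 78.9, 103 and 76.3 TPM at E11.5 and between 26.8 and 54.3 TPM in all 9 later libraries. The sexes therefore crossed: XY was higher at E11.5, they overlapped at E12.5, and XX was higher at E13.5 and E15.5, with no overlap at those 3 stages. The log2 differences, XX minus XY, were -1.85 at E11.5 (SE 0.39, edgeR adjusted p = 0.00081), 1.0004 at E13.5 (SE 0.38, adjusted p = 0.026) and 3.07 at E15.5 (SE 0.41, adjusted p = 1.3e-06). With only the 6 libraries compared in the fit, the E11.5 value of -1.88 was not called (edgeR adjusted p = 0.084). At E15.5 the mean CPM in XX was 8.40 times that in XY.

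The steps of Hsd3b1 were less firm than its sex difference at E15.5. In XX the rise was 1.50 from E12.5 to E13.5 (log2, SE 0.38, edgeR adjusted p = 0.0054) and 1.20 from E13.5 to E15.5 (SE 0.38, adjusted p = 0.0252). The latter lost its call when any of 5 of its 6 libraries was left out (adjusted p 0.0647 to 0.0755), as did the E13.5 difference between the sexes without any 1 of the 3 XY libraries (adjusted p 0.0538 to 0.0623). In XY it fell from E11.5 to E12.5 by 1.07 (SE 0.38, edgeR adjusted p = 0.024), which was not called without XY E11.5 replicate 2, XY E12.5 replicate 2 or XY E12.5 replicate 3 (adjusted p 0.0775 to 0.0795). With the 6 E11.5 libraries left out of the fit, an XY fall of 0.88 from E13.5 to E15.5 was called (edgeR adjusted p = 4.1e-05, against 0.115 with them).

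The E11.5 comparison of Hsd3b1 turned with whether its copies were counted together. Hsd3b6, a copy known from Leydig cells, was at 85.2, 47.2 and 206 TPM in XX E11.5 and at 4.08, 12.3 and 8.28 TPM in XY E11.5. It made up 88.7%, 51.5% and 96.2% of the summed TPM of Hsd3b1, Hsd3b2 and Hsd3b6 in the XX E11.5 libraries and 4.9%, 10.7% and 9.8% in XY E11.5. The share was 10.7% to 18.7% in XX E12.5 and 3.6% to 4.4% in XX E13.5. The summed level in XX E11.5 was 96.1, 91.6 and 214 TPM, and in XY E11.5 83.0, 115 and 84.6 TPM. With the 3 genes' counts added together, the E11.5 difference was 0.53 in favour of XX and not called (edgeR adjusted p = 0.0686). The XX step to E12.5 became a fall of 1.41 (log2, edgeR adjusted p = 0.000161), whereas for Hsd3b1 alone it was 0.85 and not called (SE 0.39, adjusted p = 0.097).

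Estimated counts of Hsd3b1 were not whole in 19 of 24 libraries and those of Hsd3b6 in 15. Among XX E11.5 replicates, Hsd3b6 was highest in replicate 3, which also had the highest erythroid sum, and lowest in replicate 2. Insl3 in the 3 libraries was at 1.39, 0.28 and 0 CPM, and the part of Leydig cell RNA in their Hsd3b6 level was not tested. Without XX E11.5 replicate 2, the rise of Hsd3b1 itself from E11.5 to E12.5 was 2.11 (log2, edgeR adjusted p = 2.05e-08).

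**Figure D2:**
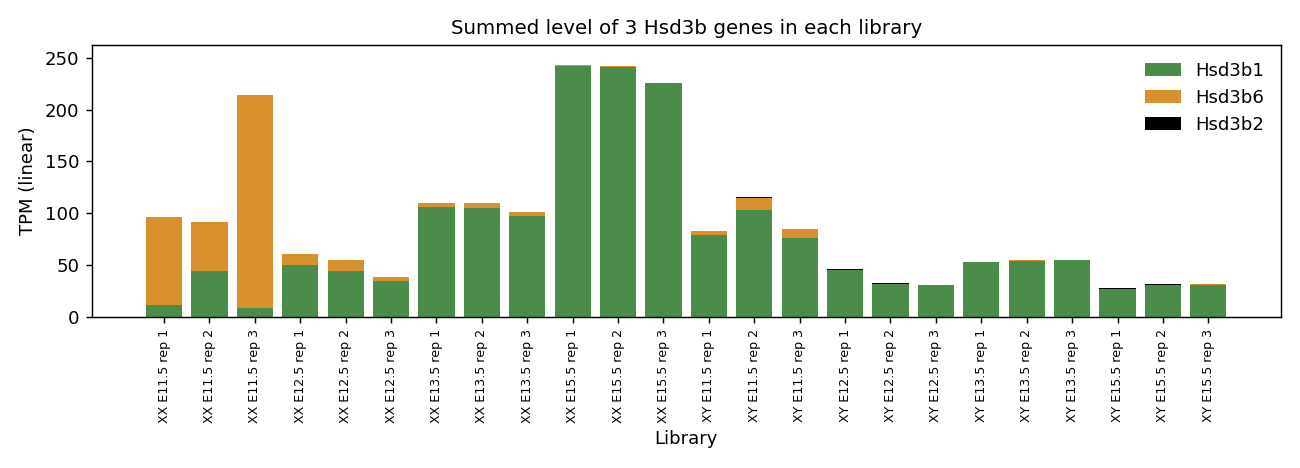
Stacked TPM (linear axis, from 0) of Hsd3b1, Hsd3b6 and Hsd3b2 in each of the 24 libraries. Hsd3b6 makes up 51.5% to 96.2% of the bar in the XX E11.5 libraries, and nearly the whole bar is Hsd3b1 in the XX E15.5 libraries.

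Cyp17a1, the 17-hydroxylase and lyase that leads to androgens, was low in both sexes and higher in XX until E13.5. XX values were 4.41, 2.68 and 1.76 TPM at E11.5, then 5.01, 6.58 and 3.64 on E12.5, 6.55, 5.35 and 5.71 on E13.5, and lastly 10.3, 10.3 and 6.41 on E15.5. XY values were 0.49, 0.37 and 0.52 TPM at E11.5, then 1.74, 1.06 and 1.02 on E12.5, 2.12, 1.34 and 1.37 on E13.5, and lastly 4.01, 12.4 and 5.93 on E15.5. No XY library reached the lowest XX library of its stage before E15.5, when they overlapped. The log2 differences, XX minus XY, were 2.65, 1.82 and 1.92 over the first 3 stages (SE 0.43, 0.39 and 0.38, edgeR adjusted p = 4.2e-05, 0.00036 and 0.00016). In XY it rose from E11.5 to E12.5 by 1.75 (SE 0.44, edgeR adjusted p = 0.0021; 0.63 and not called in limma on log2(TPM + 1), adjusted p = 0.0819) and from E13.5 to E15.5 by 2.19 (SE 0.38, edgeR adjusted p = 0.000261). XY E15.5 replicate 2, the library highest for Insl3 and Cyp11a1, was also highest for Cyp17a1, and without it the XX minus XY difference at E15.5 went from 0.33 (adjusted p = 0.41) to 0.90 (edgeR adjusted p = 0.0316).

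Cyp19a1, the aromatase gene, stayed near the detection limit. Its highest value was 0.97 TPM, in a single XX E13.5 library, and no library had more than 10 counts of it. It was the 1 gene of the 10 below the filter on low counts and was not tested. Its group means ranged from 0.023 TPM in XY E15.5 to 0.38 TPM in XX E13.5, and every neighbouring pair in that order overlapped.

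Hsd17b3 and Hsd17b1 were low in both sexes at E11.5 and far higher in XY from E12.5 on. Hsd17b3, which turns androstenedione into testosterone, was at 8.88, 8.14 and 7.50 TPM in XY E11.5, then 243, 232 and 219 on E12.5, 477, 462 and 501 on E13.5, and lastly 620, 643 and 647 on E15.5. In XX it was at 9.96, 1.96 and 4.60 TPM at E11.5 and at no more than 0.61 TPM in the 9 later libraries. Every XY group after E11.5 stood clear of the group before it. The XY rise to E12.5 was 36.0-fold in mean CPM (log2 5.17, SE 0.26, edgeR adjusted p = 2.3e-12), followed by 2.20-fold to E13.5 (log2 1.14, SE 0.21, adjusted p = 0.00096).

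At E12.5 Hsd17b3 was 720-fold higher in XY by mean CPM (edgeR adjusted p = 1.3e-14). At E13.5 the XX libraries held 8 counts against 27151 in XY, a ratio of 2420 with a counting interval of 1230 to 5620, and at E15.5 they held 14 against 28219, a ratio of 1740 (interval 1040 to 3190). In XX the gene fell 13.1-fold from E11.5 to E12.5 (log2 -3.66, SE 0.45, edgeR adjusted p = 1.1e-05). At E11.5 the sexes overlapped and the difference was not called (log2 -0.63, SE 0.27, adjusted p = 0.07), but without XX replicate 1, the high one, it was -1.41 (edgeR adjusted p = 7.66e-06). With the E11.5 libraries left out of the fit, the XY rise of 0.39 from E13.5 to E15.5 was called (edgeR adjusted p = 0.000228).

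Hsd17b1, which reduces estrone and, in the mouse, androstenedione, was near 0 at E11.5 in both sexes. XX libraries held 0.28, 0.16 and 0.08 TPM and XY libraries 0.37, 0.33 and 0.10 TPM at that stage. In XY it then rose at every step, to 36.6, 36.5 and 38.5 TPM on E12.5, then 84.2, 89.5 and 87.4 on E13.5, and lastly 280, 273 and 283 on E15.5. The log2 steps were 7.26, 1.20 and 1.67 (SE 0.23, 0.15 and 0.15, edgeR adjusted p = 1e-15, 9.8e-06 and 1.1e-07). XX libraries stayed at or under 0.79 TPM throughout. In mean CPM the XY level was 82.0 times the XX level at E12.5, 186 times at E13.5 and 362 times at E15.5 (edgeR adjusted p = 2.1e-15, 2.8e-16 and 2.2e-17).

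In XX, Hsd17b1 changed by a few counts only. Its E11.5 to E12.5 rise of 1.44 (log2, SE 0.48, edgeR adjusted p = 0.024) rested on 8 against 28 summed counts. The call was lost without XX E11.5 replicate 2, XX E11.5 replicate 3 or XX E12.5 replicate 3 (adjusted p 0.0513 to 0.203).

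Fdx1, the ferredoxin, had the narrowest range of the tested genes. XX values were 80.6, 98.5 and 58.8 TPM at E11.5, then 74.0, 73.9 and 80.4 on E12.5, 84.4, 94.0 and 99.7 on E13.5, and lastly 89.7, 87.0 and 91.2 on E15.5. XY values were 76.6, 78.0 and 71.6 TPM at E11.5 and between 58.5 and 66.9 TPM in all 9 later libraries. The sexes overlapped at E11.5 and lay apart in TPM at the later stages. On the count scale the XX minus XY difference was called at E13.5 (log2 0.73, SE 0.16, edgeR adjusted p = 0.00033) and E15.5 (log2 0.49, SE 0.16, adjusted p = 0.0085), but not at E12.5 (log2 -0.01, adjusted p = 0.95). The sign at E12.5 turned with the scaling, from -0.01 in the edgeR fit to 0.22 in limma on TPM. In XX it rose by 0.60 from E12.5 to E13.5 (SE 0.15, edgeR adjusted p = 0.0055), and on TPM with limma by 0.28, which was not called (adjusted p = 0.0775). No change over the 4 stages was called for Fdx1 in XY (edgeR adjusted p = 0.34).

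**Figure D3:**
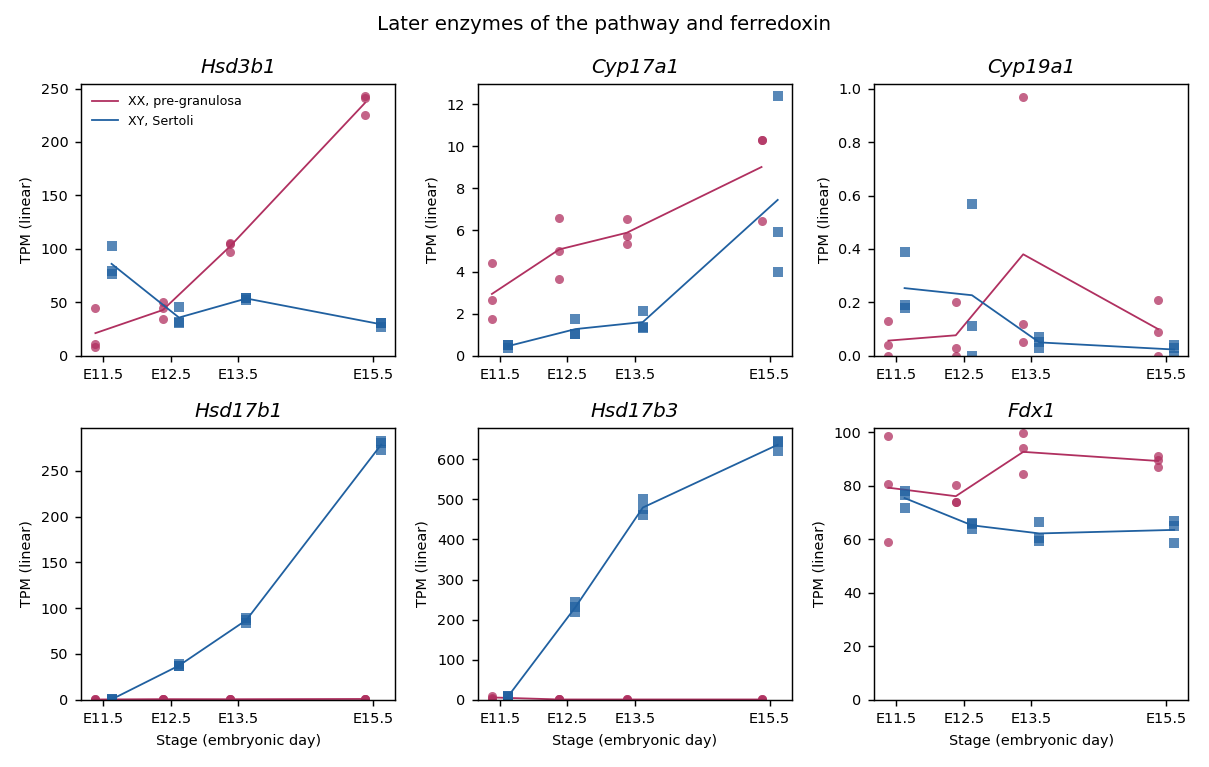
TPM (linear axes, 1 scale per gene) against embryonic stage for Hsd3b1, Cyp17a1, Cyp19a1, Hsd17b1, Hsd17b3 and Fdx1, drawn as in the plot of Star. Hsd3b1 climbs in XX, Hsd17b1 and Hsd17b3 climb in XY, Cyp19a1 stays at or under 0.97 TPM, and Fdx1 lies between 58.5 and 99.7 TPM in every library.

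Counted over the 9 tested genes, the difference between the sexes was called for 5 at E11.5, where 42.0% of all 16190 tested genes were called. Of the 5, 2 had more RNA in XX (21.4% of all genes) and 3 in XY (20.6%). At E12.5 it was called for 5, against 62.1% of all genes, 3 toward XX (30.5%) and 2 toward XY (31.5%). All 9 were called at E13.5, against 66.1%, 7 toward XX (32.8%) and 2 toward XY (33.3%). At E15.5 the calls were 5, against 69.4%, 2 toward XX (34.9%) and 3 toward XY (34.4%). At E12.5 and E15.5 the shares of the steroid genes were thus near or below those of all genes. Their median log2 difference, XX minus XY, with folds against groups at 0 set at their bound and genes at or under 3 counts in both groups set at 0, was -0.545, 0.069, 1.20 and 0.00 over the 4 stages, and that of all genes was 0.018, -0.005, 0.005 and 0.046. Hsd17b1 and Hsd17b3 were higher in XY from E12.5 on, whereas the genes higher in XX were Cyp17a1 and Cyp11b1 at E11.5, Cyp17a1, Cyp11a1 and Mc2r at E12.5, all 7 others at E13.5, and Hsd3b1 and Fdx1 at E15.5.

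**Figure D4:**
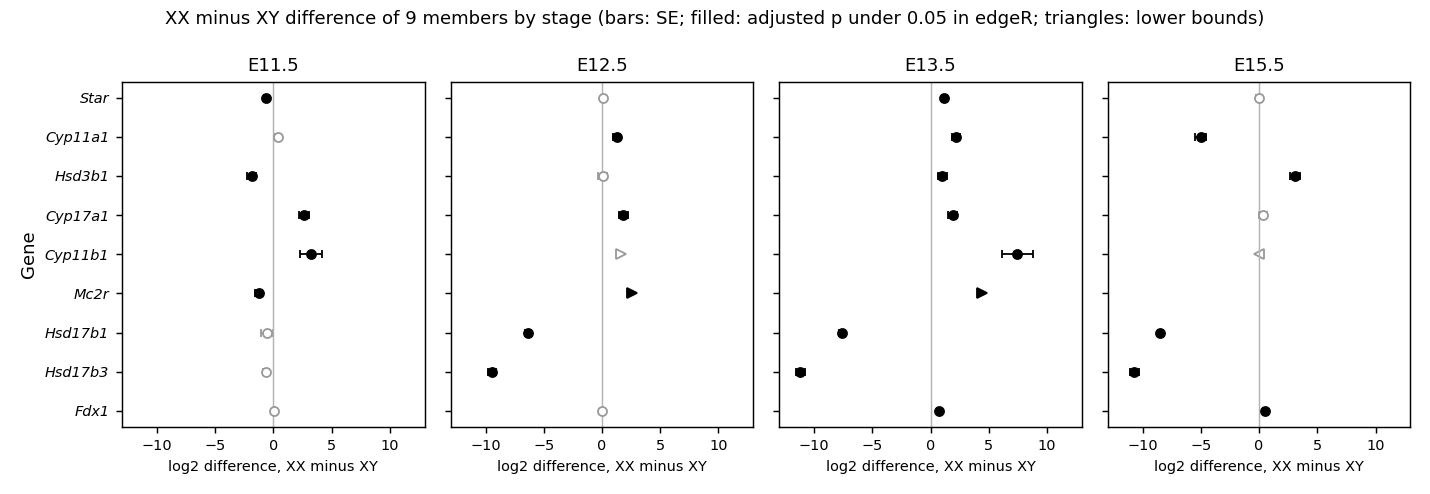
Log2 difference (XX minus XY, edgeR) of the 9 tested genes at each stage, with bars of 1 SE. Filled symbols were called, open symbols were not, triangles are lower bounds where 1 sex had no counts, and Mc2r at E15.5 is left out because both sexes were at or under 3 counts. All symbols at E13.5 are filled, and those of Hsd17b1 and Hsd17b3 alone lie on the XY side there.

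Between E11.5 and E12.5, 6 of the 9 genes were called in XX, against 34.0% of all genes, with 5 down (17.3% of all genes) and Hsd17b1 up (16.7%). From E12.5 to E13.5 the XX calls were 5, all up (Star, Cyp11b1, Hsd3b1, Mc2r and Fdx1), against 31.7% of all genes, 14.2% upward and 17.4% downward. From E13.5 to E15.5 they were 5, with Hsd3b1 up and Star, Cyp11a1, Cyp11b1 and Mc2r down, against 25.6%, of which 12.8% in each direction. In XY, 8 of 9 changed from E11.5 to E12.5, 3 up (Hsd17b1, Hsd17b3 and Cyp17a1) and 5 down, against 51.9%, 27.1% upward and 24.8% downward. From E12.5 to E13.5 Hsd17b1 and Hsd17b3 were called, both up, against 16.6%, and from E13.5 to E15.5 Cyp11a1, Cyp17a1 and Hsd17b1, all up, against 21.3%. Median steps, with the same bounds and zeros set as for the sex differences, were -1.68, 0.595 and -0.143 in XX and -1.07, 0.307 and 0.394 in XY. As fitted, the XY medians from E12.5 to E13.5 and from E13.5 to E15.5 were 0.343 and 1.67. Medians of all genes, as fitted, lay between -0.013 and 0.030. The step in XX differed from that in XY for 5 of the 9 genes between E11.5 and E12.5 (40.1% of all genes), for Star, Fdx1 and Hsd17b1 from E12.5 to E13.5 (25.2%), and for 6 from E13.5 to E15.5 (25.8%). For Fdx1 this was lost without XX E13.5 replicate 3 (log2 difference of the steps 0.61, edgeR adjusted p = 0.0642, against 0.0166 with it) and in the 3 limma fits (0.35, adjusted p 0.134 to 0.201). The Star step difference from E12.5 to E13.5 was not called in limma over all genes (0.96, adjusted p = 0.059). Some change over the 4 stages was called for 9 of 9 in XX (74.0% of all genes) and for 8 of 9 in XY (70.3%), and an interaction of sex with stage for 9 of 9 (70.1%).

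Other genes of the pathway were counted in 5 lists, of which cholesterol supply comprised 8 genes, all tested. Over all tested genes, 21.4%, 30.5%, 32.8% and 34.9% were called toward XX in order of stage, and 20.6%, 31.5%, 33.3% and 34.4% toward XY, the background for each of the lists. In order of stage, 3, 4, 3 and 3 of the 8 were higher in XX and 1, 4, 3 and 4 in XY. Soat1, which stores cholesterol as esters, was higher in XX at all 4 stages. It held 780 to 1064 TPM in XX E11.5 and 733 to 870 in XX E15.5, against 424 to 596 and 131 to 136 in XY (log2 difference at E15.5 2.37, SE 0.13, edgeR adjusted p = 1.11e-12). Scarb1, the HDL receptor, was higher in XY from E12.5, with 148 to 151 TPM in XY E15.5 against 12.2 to 23.5 in XX (log2 -3.18, SE 0.21, edgeR adjusted p = 3.5e-11).

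Electron donors comprised 6 genes, of which 1, 4, 1 and 2 were higher in XX and 2, 1, 1 and 3 in XY over the 4 stages, against the same all-gene shares of 20.6% to 34.9% a direction. Fdxr, the reductase that feeds ferredoxin, was higher in XY at every stage. In XY it was at 47.5, 64.4 and 44.2 TPM at E11.5 and at 181, 190 and 192 TPM at E12.5 (log2 rise 2.07, SE 0.15, edgeR adjusted p = 4.67e-10), while its XX libraries held 29.7 to 68.3 TPM over the 4 stages. Fdxr and its partner Fdx1 thus differed between the sexes in opposite directions at E13.5 and E15.5.

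Of 17 other steroid enzymes, 13 were tested. Higher in XX were 5, 5, 7 and 5 of them, and higher in XY 5, 3, 4 and 3, where 20.6% to 34.9% of all genes were called in a direction. Akr1c14, a 3-alpha-hydroxysteroid dehydrogenase, was called higher in XX at all 4 stages, although at E11.5 the ranges overlapped (2.55, 14.0 and 1.50 TPM in XX, with replicate 2 high, and 0.93, 1.15 and 1.66 TPM in XY). At E15.5 it was at 47.3, 55.4 and 52.5 TPM in XX against 6.77, 5.46 and 4.12 TPM in XY (log2 3.46, SE 0.52, edgeR adjusted p = 7.41e-06). Hsd17b2, which oxidises estradiol and testosterone, that is the reverse of Hsd17b1 and Hsd17b3, was at 15.3, 14.6 and 14.5 TPM in XX E15.5 and at 0.26, 0.34 and 0.22 TPM in XY E15.5 (log2 6.48, SE 0.76, edgeR adjusted p = 1.8e-07). Hsd17b7, another reductive enzyme, did not pass the test at E15.5, with 22.4 to 26.8 TPM in XX and 18.6 to 22.99 in XY (log2 -0.02, edgeR adjusted p = 0.884).

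Regulators of steroid genes comprised 10 genes, of which 3, 4, 4 and 4 were higher in XX and 2, 2, 2 and 4 in XY, against 20.6% to 34.9% of all genes a direction. Nr5a1, the nuclear receptor of steroidogenic tissues, was higher in XY at every stage (log2 -1.32, -1.46, -1.54 and -2.29, edgeR adjusted p = 3.47e-06 at E11.5 and smaller later). Its XX libraries fell from 111 to 130 TPM at E11.5 to 25.5 to 47.1 TPM at E15.5. Between E12.5 and E13.5, where Star, Cyp11b1 and Mc2r rose in XX, Nr5a1 fell by 0.77 (SE 0.17, edgeR adjusted p = 0.0018). Nr4a1 rose by 2.53 at that step (log2, SE 0.58, edgeR adjusted p = 0.00261) and fell from E13.5 to E15.5 (log2 -2.435, SE 0.59, edgeR adjusted p = 0.00502). From E11.5 to E12.5, where Star fell in both sexes, Nr4a1 fell in XX and rose in XY (log2 -2.38 and 1.86, edgeR adjusted p = 0.00394 and 0.00804). Its XX E11.5 libraries spread over 130, 24.8 and 10.8 TPM. Nr4a1 was higher in XY at E12.5 and E15.5 (XX minus XY, log2 -4.50 and -3.39, edgeR adjusted p = 4.11e-06 and 5.51e-05). Of the 10 regulators, 2 were called up and 4 down in XX from E12.5 to E13.5, and 0 up and 6 down from E13.5 to E15.5. The all-gene shares were 14.2% up and 17.4% down, then 12.8% in each direction. The part of these regulators in the steroid gene courses was not tested. Lhx9, a factor of the early gonad, was higher in XX at all stages, with a log2 difference of 1.61 at E11.5 (SE 0.16, edgeR adjusted p = 7.03e-08).

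Hormone signalling comprised 10 genes, of which 3, 3, 4 and 7 were higher in XX and 0, 4, 4 and 2 in XY, against the all-gene shares of 20.6% to 34.9%. Mrap, the accessory protein that MC2R needs at the cell surface, rose in XX from 7.35, 6.83 and 5.29 TPM at E12.5 to 16.01, 17.1 and 15.7 at E13.5 (log2 1.56, SE 0.37, edgeR adjusted p = 0.00275). It stood at 28.1, 27.2 and 26.7 TPM at E15.5, when Mc2r was at 1 or 2 counts, and its own XX step from E13.5 was not called (log2 0.76, SE 0.35, adjusted p = 0.12). Lhcgr, the LH receptor, was at 16.4, 18.6 and 14.2 TPM in XX E15.5 against 0.45, 0.95 and 0.81 TPM in XY (log2 4.41, SE 0.43, edgeR adjusted p = 1.18e-08). Median log2 differences of the 5 lists at E15.5 were -0.323 for cholesterol supply, -0.151 for electron donors, 0.112 for other enzymes, 0.108 for regulators and 0.607 for hormone signalling, against 0.046 over all genes. These medians were taken as fitted, with no bounds set.

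**Figure D5:**
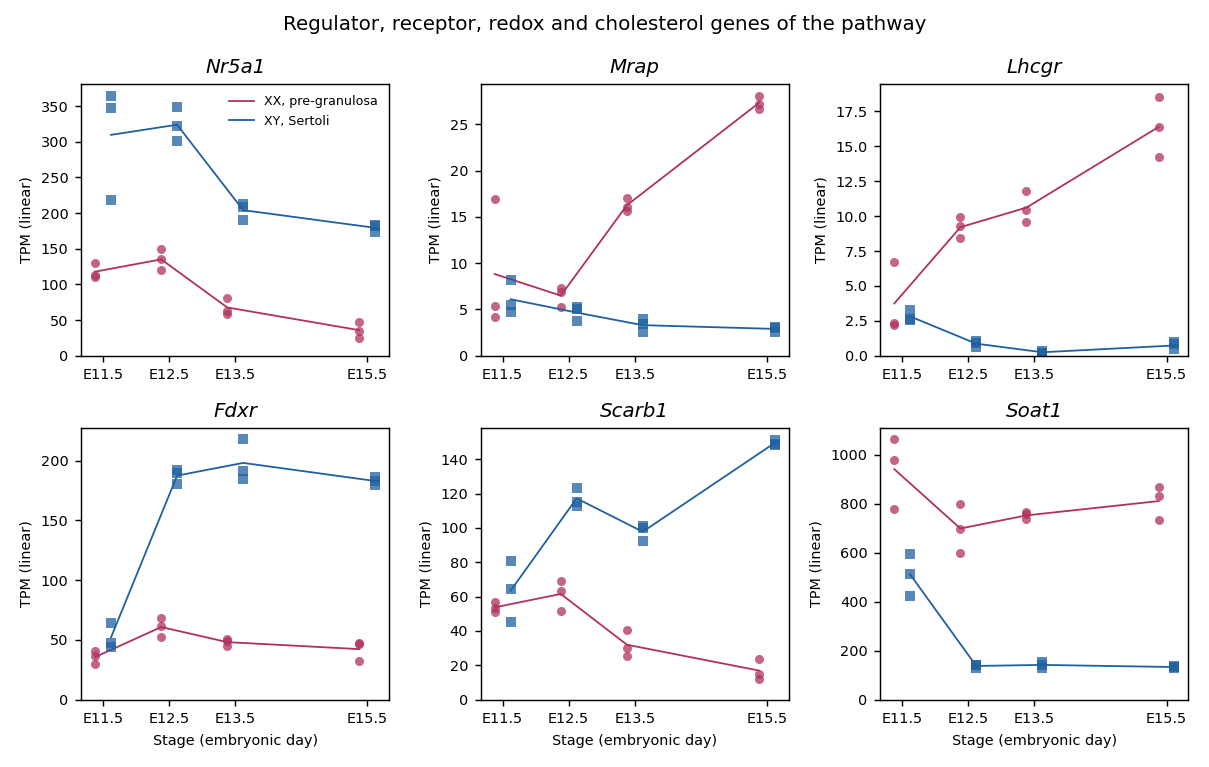
TPM (linear axes, 1 scale per gene) against embryonic stage for Nr5a1, Mrap, Lhcgr, Fdxr, Scarb1 and Soat1, with 1 point per library, circles XX and squares XY, and lines through group means. Mrap, Lhcgr and Soat1 are higher in XX at E15.5, and Nr5a1, Fdxr and Scarb1 are higher in XY.

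Genes with the most similar course were ranked by Pearson r of log2(CPM + 1) over the 24 libraries, among 11167 genes with a mean of at least 10 CPM in a group. These values share libraries and groups and are given as a description. Star was followed most closely by Mc2r (r = 0.935), one of the 10 genes, and then by Ibsp (0.908) and Gap43 (0.866). For Mc2r the nearest were Nefm and Nr2f1 (both 0.945) and Klhl14 (0.939). Cyp11a1 had C2cd2 (0.908), Plac1 (0.900) and Ipo9 (0.883), and Cyp11b1 had Chgb (0.888), Rgs4 (0.883) and Nme1 (0.870).

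Among the later enzymes, Hsd3b1 was nearest to Akap17b (0.95), Atp1b1 (0.933) and Cd1d2 (0.895), and Cyp17a1 to Anxa1 (0.897), Zg16 (0.893) and Cst12 (0.881). Hsd17b3 had Chmp4c (0.990), Amh (0.987), the Sertoli cell hormone, and Mafk (0.986), and Hsd17b1 had Uba1y (0.992), Mybpc3 (0.991) and Slc13a2 (0.991). Fdx1, which varied least, had lower values, with Taf7 and Tmem126a at 0.857 and Kdm1a at 0.856. Hsd17b1 and Hsd17b3 followed each other with r = 0.956. Uba1y is a Y-linked gene.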

How the data were processed

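RNA was measured in 24 libraries of sorted cells. Per the labels' protocols, polyA RNA was made into cDNA, amplified and sequenced from a low-input kit, with no molecular identifiers named, so counts are not independent molecules and intervals cover counting error only. The submitters' processing notes name mm10. The aligner, counter and strand setting are not given in the sources used here. The authors deposited estimated counts per gene (17.5% of values not whole), which were rounded for testing, and TPM, which correct for gene length and library size.

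The 10 genes and the lists were chosen with earlier results of these data known. Counts were fitted with edgeR 4.0.16 (R 4.3.3; quasi-likelihood, robust, TMM scaling, filterByExpr, 8 group means, 16 residual degrees of freedom), and p-values were adjusted by Benjamini-Hochberg over 16190 genes, with a call at adjusted p under 0.05. CPM are counts scaled to the TMM-adjusted library totals. The biological coefficient of variation was 17.4%. The fit was also run on simulated counts to check the code, and the outcome is not reported here. Totals of 11275251 to 37256881 put the limit of 3 counts at 0.0774 to 0.26 CPM. No replicate pair differed by as little as sampling noise (lowest chi-square per degree of freedom 3.86 over 24 pairs).

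Every one of the 10 genes is named. List genes were named mainly from called genes with 10 CPM or more in the higher group and the largest differences, and the 3 nearest genes by correlation are named too. Not every gene that met this rule is described, and Hsd17b12, Prkaca and Gata4 are among those left out. Hsd17b7 at E15.5 and Cyp21a1 were named outside the rule, as were the copies Hsd3b2 and Cyp11b2. Alternatives were DESeq2 1.42.0, its size factors, limma 3.58.1 on log2(TPM + 1) and log2(TPM + 0.1), other filters, fewer libraries in the fit, a replicate block and leaving out each library. Coding and promoter sequences were aligned with Biopython 1.88. Counting intervals are 95% exact binomial intervals on summed counts.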

Additional observations from a re-analysis of the deposited data

Results flagged for a closer look

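For each of the 9 tested genes, the XX minus XY difference was not the same at the 4 stages, by edgeR's test of the interaction of sex with stage over 16190 genes, of which 70.1% were called. The adjusted p was 2.55e-12 for Hsd17b3, 2.93e-08 for Cyp11a1, 7.43e-08 for Mc2r, 2.68e-07 for Hsd17b1, 3.03e-06 for Hsd3b1, 3.17e-05 for Star, 0.0049 for Cyp17a1, 0.0125 for Cyp11b1 and 0.0143 for Fdx1. For Cyp11a1 the sign itself turned, from 2.16 at E13.5 to -5.03 at E15.5. It also turned for Mc2r, from -1.25 at E11.5 to at least 22.0-fold higher in XX at E13.5. Star went from -0.63 at E11.5 to 1.20 at E13.5. With only the 6 libraries compared in the fit, Star was not called at E11.5 (edgeR adjusted p = 0.0933). For Hsd3b1 the difference went from -1.85 at E11.5 to 3.07 at E15.5, but the E11.5 value was 0.527 with the Hsd3b copies summed (adjusted p = 0.0686), and no turn of sign then remained. The interaction call was lost for Cyp11b1 without XY E15.5 replicate 2 (0.0511) and for Cyp17a1 in limma on log2(TPM + 1) (0.0538, and 0.0875 over all genes).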

How the results depend on the processing

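Of 2192 single-gene results under the alternatives, 2083 kept their direction and their side of the threshold, 29 changed sign, 33 gained a call and 47 lost one. With at least 10 counts required in every library, only 4 of the 10 genes were tested, and calls numbered 3, 1, 4 and 2 for XX minus XY over the 4 stages, 1, 3 and 2 for the XX steps, 3, 0 and 1 for the XY steps, 4 and 3 for any change in XX and XY, and 4 for the interaction. With only the libraries compared in the fit, calls were 2 for XX minus XY at E11.5, 4 for XY E12.5 to E13.5 and 6 for XY E13.5 to E15.5, and without the 6 E11.5 libraries, an alternative chosen after seeing the data like the summed Hsd3b counts and the differences between steps, the latter was also 6. Leaving out 1 library gave 4 to 6, 5 to 6, 8 to 9 and 5 to 6 calls for XX minus XY, 6 to 7, 5 to 5 and 4 to 5 for XX steps, 7 to 8, 2 to 2 and 3 to 4 for XY steps, 8 to 9 and 7 to 8 for any change, and 8 to 9 for the interaction. With the replicate block, calls were 5, 6, 9 and 5 for XX minus XY, 7, 5 and 5 for XX steps and 8, 2 and 3 for XY steps. No general pairing by replicate number was seen: deviations of same-numbered libraries correlated at a median of 0.002 over 84 pairs, from -0.11 to 0.3. Libraries with different numbers had a median of -0.002 over 168 pairs, from -0.27 to 0.15. A median over all groups cannot exclude pairing among some of them.

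Against the edgeR scaling, limma on TPM moved the median of all genes by 0.207 for XX minus XY at E12.5, by -0.204 for XX E12.5 to E13.5 and by -0.213 for XY E11.5 to E12.5. Fdx1 at E12.5 (XX minus XY) was 0.032 with DESeq2 size factors, 0.093 under the 10-count filter, 0.031 with DESeq2, 0.219 and 0.221 in limma with pseudocounts of 1 and 0.1, 0.219 over all genes and 0.032 with only the libraries compared. Star at E15.5 was 0.005 under the 10-count filter. Cyp11a1 from E12.5 to E13.5 in XX was -0.223, -0.235 and -0.223 in the 3 limma fits. Summing the Hsd3b counts gave 0.527 for Hsd3b1 at E11.5 and -1.41 for its XX step to E12.5. Leaving out 1 library at a time, uncalled values that changed sign ran from -0.111 to 0.296 and -0.08 to 0.022 for Fdx1 at E11.5 and E12.5, from -0.132 to 0.128 for Star at E15.5, from -0.048 to 0.313 for Hsd3b1 at E12.5, from -0.018 to 0.138 and -0.456 to 0.357 for the XX step to E13.5 of Cyp11a1 and Hsd17b1, and from -0.019 to 0.221 for Star at E12.5. The cause of these changes was not tested. Depth limits Cyp19a1, Cyp11b1 and Mc2r most, since many of their libraries hold 3 counts or fewer.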
